A study of Mus musculus with 2 samples.

Results

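The clustered protocadherin genes are the 57 protein-coding genes of the mouse annotation (GENCODE M21, genome build GRCm38) whose symbols begin with Pcdha, Pcdhb followed by a digit, or Pcdhg. They are 57 of 21951 protein-coding genes and lie in 3 neighbouring clusters on the plus strand of chromosome 18. Pcdha has 14 members (12 alpha and 2 alpha C genes), Pcdhb has 22 (beta), and Pcdhg has 21 (12 gamma A, 6 gamma B and 3 gamma C). The rule takes members by name and uses no peak value.

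ChIP-seq for TET2 was performed on primary mouse adipocytes. Adipose-derived stem cells (ASCs) were grown from the stromal vascular fraction of inguinal white fat, used at passage 3, and differentiated into adipocytes with IBMX, dexamethasone and insulin, then insulin alone. The experiment has 1 library of DNA precipitated with an antibody against TET2 and 1 input library of chromatin that was not precipitated. Genotype, sex, age and number of donor animals are not given in the labels. The paper's methods state that its experiments used male mice, without describing the donors of the ChIP-seq cells. A list of peaks holds no RNA with which the cell type could be checked. A peak is an interval in which fragments from the TET2 library outnumber the background, and the deposited list has 14103 of them, each with its −log10 p. The study's reporting summary names 1e-05 as the p setting of the peak caller, yet 2182 of the deposited values (15.5%) are under 5, 1 of them in the clusters, and the sources used here do not account for this. The list gives no read totals, so the depth is unknown. With 1 TET2 library no value has a replicate error and no test between groups was possible. Intervals given below are exact 95% intervals, binomial for shares and Poisson for densities, and cover counting error only. Members resemble each other in sequence and come from the same library, so they are not independent replicates.

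Clustered protocadherins are cell surface adhesion proteins best known from neurons, where each cell uses a combination of isoforms as an identity label. In Pcdha and Pcdhg, each member begins with its own promoter and its own large variable exon, which encodes the extracellular cadherin repeats, the membrane segment and a short cytoplasmic stretch. That exon is spliced to constant exons shared by the whole cluster, which encode the common cytoplasmic end. Beta genes have the variable exon and no constant exons. Choice of a promoter is known to involve DNA methylation, CTCF and cohesin, and TET2 is an enzyme that oxidises methylated cytosine.

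TET2 peaks were dense in all 3 clusters and sat almost entirely in variable exons. By midpoint, the clusters held 32 peaks: 9 in Pcdha (chr18:36930184-37187661), 18 in Pcdhb (chr18:37264938-37524479) and 5 in Pcdhg (chr18:37661793-37841873). Of these 32, 30 lay in a variable exon (93.8%, interval 79.2% to 99.2%), while variable exons make up 26.3% of the bases of the clusters. Each of the 30 lay in the exon of a different member. None lay in a constant exon or in an intron between constant exons, and 2 lay between members. The 6 constant exons, 3 in Pcdha and 3 in Pcdhg, span 4979 bp or 0.714% of the bases, so a count of 0 there carries little information.

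**Figure D1:**
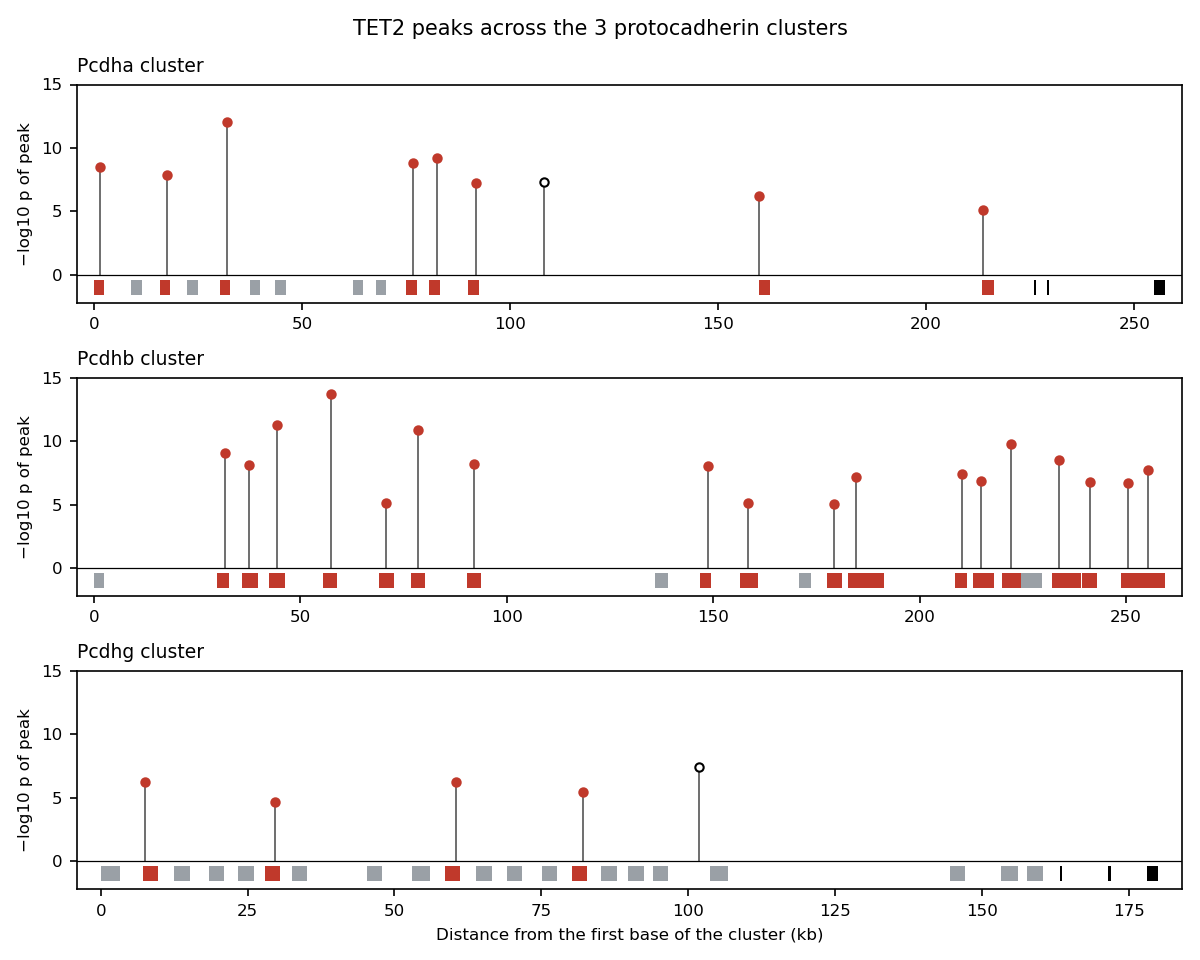
Each stem is 1 TET2 peak, placed by its midpoint in kb from the first base of its cluster and drawn to the height of its −log10 p. Boxes under the axis are variable exons with a peak (red) or without one (grey) and constant exons (black), and open circles mark the 2 peaks between members. All 18 beta peaks stand over a variable exon, and the black exons have none.

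The density of peaks was 45.9 per Mb over the 3 clusters (31.4 to 64.8), against 4.86 per Mb (4.41 to 5.33) on the rest of chromosome 18 and 5.61 per Mb (5.52 to 5.71) on the autosomes. Pcdhb had the highest density at 69.4 per Mb (41.1 to 109.6), followed by Pcdha at 35.0 (16.0 to 66.4) and Pcdhg at 27.8 (9.02 to 64.8), and these 3 intervals overlap. Within the clusters, variable exons had 163 peaks per Mb (110 to 233) and all other bases had 3.89 (0.472 to 14.1). The latter interval includes the density of the autosomes. From the start of Pcdha1 to the last constant exon of Pcdhg, 911690 bp held 32 peaks. Among 2454 autosomal windows of 1 Mb, whose median was 5 peaks, 2 held as many as 32, and 1 of these lies over the clusters themselves. The 77276 bp between Pcdha and Pcdhb and the 137313 bp between Pcdhb and Pcdhg had no peak, and at the density of the autosomes stretches of this size often hold none. The last cluster peak was followed by 171374 bp without a peak. The nearest midpoints outside lay 65897 bp before Pcdha1 and 93178 bp after the end of Pcdhg, the latter near the starts of Diaph1 and Hdac3.

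A peak midpoint lay in the variable exon of 30 of 57 members, or 52.6% (39.0% to 66.0%). Of all coding exons of at least 2 kb in the genome, 9.80% held a midpoint (760 of 7756). Exons with at least 2 kb of coding sequence are a closer match to the variable exons. Of these, 19.9% held a midpoint (149 of 747), and outside the clusters 120 of 691 did (17.4%, 14.6% to 20.4%). The interval for the members lies above all 3 of these shares.

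The share of members with a peak ranged widely between subtypes. Beta genes had one in 18 of 22 exons (81.8%, 59.7% to 94.8%) and alpha genes in 6 of 12 (50%, 21.1% to 78.9%). Gamma A genes, which alternate with gamma B genes along the same cluster, had one in 1 of 12 (8.33%, 0.211% to 38.5%). Gamma B genes had one in 3 of 6 (50%, 11.8% to 88.2%). Both alpha C genes had one, and none of the 3 gamma C genes did, which allows a share of up to 70.8%. The intervals of beta and gamma A do not overlap, and all other pairs of subtypes overlap.

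**Figure D2:**
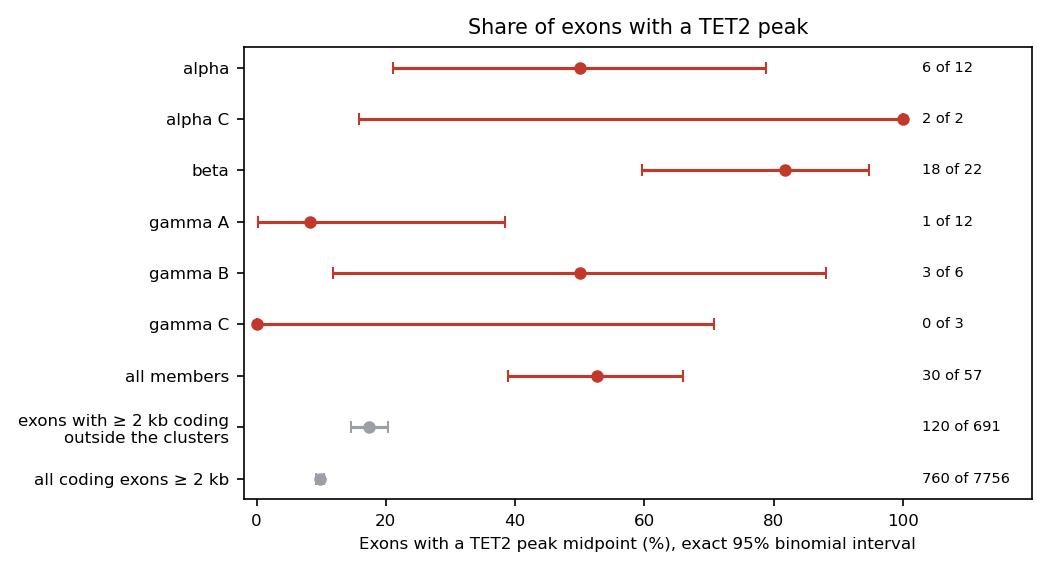
Points give the percentage of variable exons with a TET2 peak midpoint, by subtype and for all 57 members (red), beside long coding exons of other genes and of the genome (grey). Bars are exact 95% binomial intervals for counting error, and the counts stand at the right. Beta members (18 of 22) lie highest among subtypes with more than 2 members, and gamma A members (1 of 12) are near the grey points.

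Promoters of the members showed the opposite picture. Only 4 of 57 members had a midpoint within 1 kb of a transcription start site (TSS), or 7.02% (1.95% to 17.0%), below the 24.6% of all protein-coding genes (5391 of 21951). None of the 22 beta genes had one, which allows up to 15.4%. Within 3 kb of a TSS the order turned, with 33 of 57 members (57.9%) against 28.5% of protein-coding genes. The wider window takes in the downstream stretch of the variable exon described next. The 4 members with a promoter peak were Pcdhac1, Pcdhac2, Pcdhga2 and Pcdha11. The midpoint at Pcdhac1 lay 5 bp downstream of a TSS, that at Pcdhac2 395 bp, and that at Pcdhga2 303 bp. At Pcdha11 the TSS, 284 bp upstream of the midpoint, starts an internal transcript within the variable exon, and the peak is the one described below for that exon.

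Within the variable exons, 27 of the 30 midpoints fell in a shared stretch past the middle of the coding part. These 27 lay 1315 to 1863 bp downstream of the start codon (median 1687 bp, SD 128 bp). The coding parts of the 57 exons are 2316 to 2562 bp long, so the midpoints stood at 55.1% to 78.3% of the coding part, within codons 439 to 622. Alpha midpoints ran from 1315 to 1678 bp (n = 6), beta midpoints from 1486 to 1863 bp (n = 18, median 1717.5 bp), and gamma B midpoints from 1514 to 1727 bp (n = 3), so the 3 subtypes shared a range. The most hydrophobic window of 19 residues, used as a mark of the membrane segment, starts 2040 to 2181 bp after the start codon in the members. The 27 midpoints lay 210 to 770 bp before it (median 386 bp), in sequence that encodes the part of the protein outside the cell and close to the membrane. The remaining 3 midpoints were near the start codon, at −118 bp in Pcdhac1, −71 bp in Pcdhac2 and 151 bp in Pcdhga2. A minus sign means upstream.

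**Figure D3:**
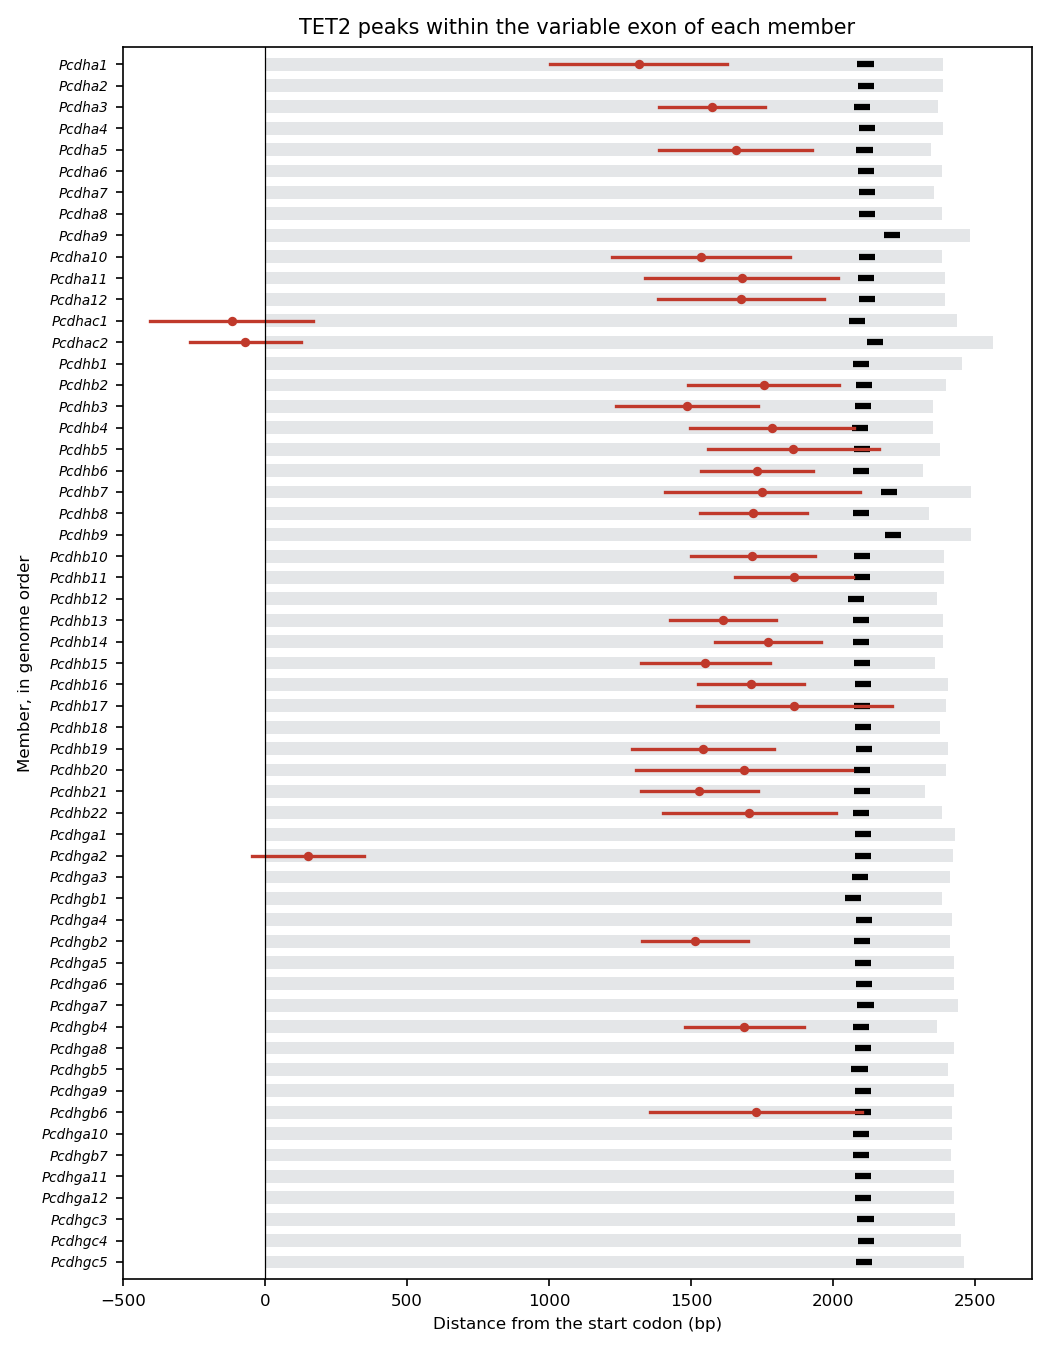
Each row is 1 of the 57 members in genome order, with the coding part of its variable exon in grey, the hydrophobic window in black, and the TET2 peak as a red line with a dot at its midpoint, in bp from the start codon. The dots of 27 members stand between 1315 and 1863 bp, and those of Pcdhac1, Pcdhac2 and Pcdhga2 stand near 0.

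Other long coding exons had peaks at other places. Outside the clusters, 254 exons hold a start codon and at least 2 kb of coding sequence, and 63 of them had a peak (24.8%, 19.6% to 30.6%). In 30 of these 63 (47.6%, 34.9% to 60.6%) the first midpoint lay before the start codon or within 500 bp after it, against 3 of 30 members (10.0%, 2.11% to 26.5%). In 9 of the 63 (14.3%, 6.75% to 25.4%) it lay 1315 to 1863 bp after the start codon, the range that the 27 member peaks define.

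The strength of the member peaks was moderate on the scale of the list. The −log10 p of the 32 cluster peaks ran from 4.63 to 13.7 with a median of 7.41, and the median of all 14103 peaks was 6.21. By cluster the medians were 7.86 in Pcdha, 7.90 in Pcdhb and 6.21 in Pcdhg. The lengths were 375 to 762 bp. These values rank peaks within the library and carry no error between libraries.

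In the Pcdha cluster, the largest value was at Pcdha5 (12, midpoint 1657 bp from the start codon). Pcdha11 (9.20, at 1678 bp), Pcdha10 (8.81, at 1534 bp) and Pcdha1 (8.50, at 1315 bp) followed. Pcdha1 is the first member and its midpoint was the most upstream of the 27. Pcdha3 (7.86, at 1574 bp) and Pcdha12 (7.21, at 1676 bp) had the remaining far peaks. The peak of Pcdha11 also overlaps an exon of the antisense gene Gm10545, and a list of peaks does not tell the strands apart. Pcdha2, Pcdha4, Pcdha6, Pcdha7, Pcdha8 and Pcdha9 had no peak in the exon. The 2 C-type genes at the end of the cluster, which are known to be expressed more evenly among neurons, had weaker peaks at their start: Pcdhac1 (6.21) and Pcdhac2, the last member (5.13).

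The Pcdhb cluster held the largest value of all members, 13.7 at Pcdhb5 (midpoint 1860 bp from the start codon), which 185 of the 14103 peaks exceed. Pcdhb4 (11.3, at 1784 bp) and Pcdhb7 (10.9, at 1751 bp) came next, then Pcdhb17 (9.80, at 1863 bp) and Pcdhb2 (9.06, at 1755 bp). Values between 7 and 9 belonged to Pcdhb19 (8.51), Pcdhb8 (8.21), Pcdhb3 (8.11), Pcdhb10 (8.06), Pcdhb22 (7.74), Pcdhb15 (7.40) and Pcdhb14 (7.21). Lower values belonged to Pcdhb16 (6.82), Pcdhb20 (6.80), Pcdhb21 (6.70), Pcdhb6 (5.13), Pcdhb11 (5.13) and Pcdhb13 (5.07). The first member, Pcdhb1, had none, nor had Pcdhb9, Pcdhb12 and Pcdhb18, while the last member, Pcdhb22, had one. Close relatives could differ: Pcdhb9 is 89.7% identical in its coding part to Pcdhb7, its nearest relative, whose peak had one of the largest values.

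The Pcdhg cluster had the weakest member peaks. Pcdhgb4 (6.24, midpoint 1687 bp from the start codon), Pcdhgb6 (5.48, at 1727 bp) and Pcdhgb2 (4.63, at 1514 bp) carried the far kind, and Pcdhga2 (6.21) the near kind. Pcdhgb1, Pcdhgb5, Pcdhgb7 and the 11 other gamma A genes had none, the first member Pcdhga1 among them. Pcdhgc3, Pcdhgc4 and the last member Pcdhgc5, the C-type genes of this cluster, had none either.

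Both peaks between members were stronger than the median of the list. The first, chr18:37038065-37038447 with a −log10 p of 7.34, lies between Pcdha12 and Pcdhac1, 18107 bp downstream of the TSS of Pcdha12, and 97.7% of its bases are marked as repeats. The second, chr18:37763393-37763961 with a −log10 p of 7.41, lies in the first exon of Pcdhgb8, which the annotation calls a polymorphic pseudogene and which is therefore no member. Its midpoint is 1876 bp from the first base of that exon. The 27 far member peaks lie 1416 to 2315 bp from the first base of theirs, so the peak of the pseudogene falls within their range. The annotated genes Gm42416, Gm37013 and Gm37388 span many members, and Gm26672 and Gm37165 also hold cluster peaks. They share these peaks with the members and were not counted.

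Most far peaks, and nearly all in beta genes, lay at the most CpG-rich stretch of the variable exon. CpG is the dinucleotide at which mammalian DNA is methylated and on which TET enzymes act. In each coding part, CpG was counted in windows of 401 bp, and 22 of the 27 far midpoints lay within 200 bp of the centre of the window with the most CpG (81.5%, 61.9% to 93.7%). By subtype these were 17 of 18 in beta (94.4%, 72.7% to 99.9%), 3 of 6 in alpha (50%, 11.8% to 88.2%) and 2 of 3 in gamma B (66.7%, 9.43% to 99.2%). In alpha the midpoints of Pcdha5, Pcdha12 and Pcdha11 lay 245, 264 and 269 bp past it. Over all 27 the distances ran from −222 to 269 bp with a median of 23 bp. The window around the midpoint had more CpG than the median window of the same exon in 26 of the 27 exons, Pcdha12 being the exception with 24 in both. The 3 near peaks were left out of these counts. The window with the most CpG was centred at 273 bp in Pcdhac1, 328 bp in Pcdhac2 and 606 bp in Pcdhga2. Windows lay wholly within the coding part, so no centre was closer than 200 bp to the start codon. The midpoints of Pcdhac1 and Pcdhac2, upstream of the start codon, could therefore not lie within 200 bp of a centre. That of Pcdhga2 could, and did not. In long coding exons outside the clusters, the midpoint nearest the centre lay within 200 bp in 57 of the 120 with a peak (47.5%, 38.3% to 56.8%). Those peaks lay at any distance from a start codon, in exons often longer than the members' coding parts. The shares are therefore not like for like.

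The subtypes differ in where this stretch is. In beta genes, CpG rose from 1.82 ± 1.22 per 100 bp (SD over 22 members) in the first 200 bp to 5.82 ± 1.44 between 1600 and 1800 bp, the bin that held 11 of the 18 midpoints. In gamma B genes it reached 10.75 ± 1.78 in the same bin (n = 6). In alpha genes it was high near the start and again downstream. It was 6.38 ± 0.83 between 200 and 400 bp and 8.29 ± 1.03 between 1400 and 1600 bp (n = 12). Only the downstream stretch held midpoints, and much of the sequence in both bins is not unique in the genome, as given below. Gamma A genes had 6.46 ± 1.16 per 100 bp at the start and 2.42 ± 1.51 between 1600 and 1800 bp (n = 12), and their single peak was at the start.

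**Figure D4:**
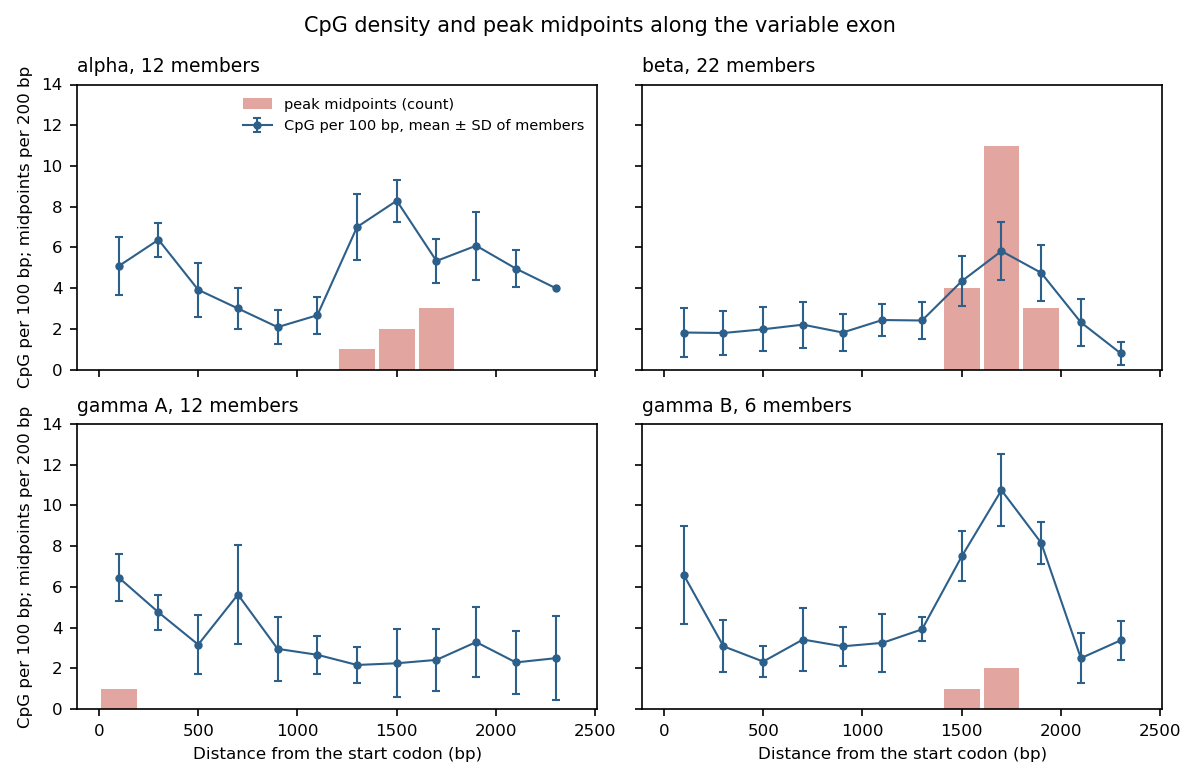
Blue points give CpG per 100 bp in bins of 200 bp from the start codon (mean ± SD over the members of a subtype), and red bars count TET2 peak midpoints per bin. In beta genes the bars (4, 11 and 3 midpoints) stand under the rise of the line, and gamma A genes have neither the rise nor the bars there.

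Between 1315 and 1863 bp, the range set by the peaks themselves, the median CpG count per window separated the subtypes more than it separated members with and without a peak. Among beta genes it was 14 to 27 (median 21) in the 18 members with a far peak and 6 to 22 (median 18.5) in the 4 without. The value of 6 belongs to Pcdhb1, and the other 3 beta genes without a peak (Pcdhb9, Pcdhb12 and Pcdhb18, at 19, 18 and 22) fell inside the range of those with one. Among alpha genes the medians were 27.5 with and 25.5 without, and among gamma B genes 33 with and 34 without, with overlapping ranges. Gamma A genes without a peak had 4 to 22 with a median of 8. Pcdhga12, the highest at 22, had no peak.

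**Figure D5:**
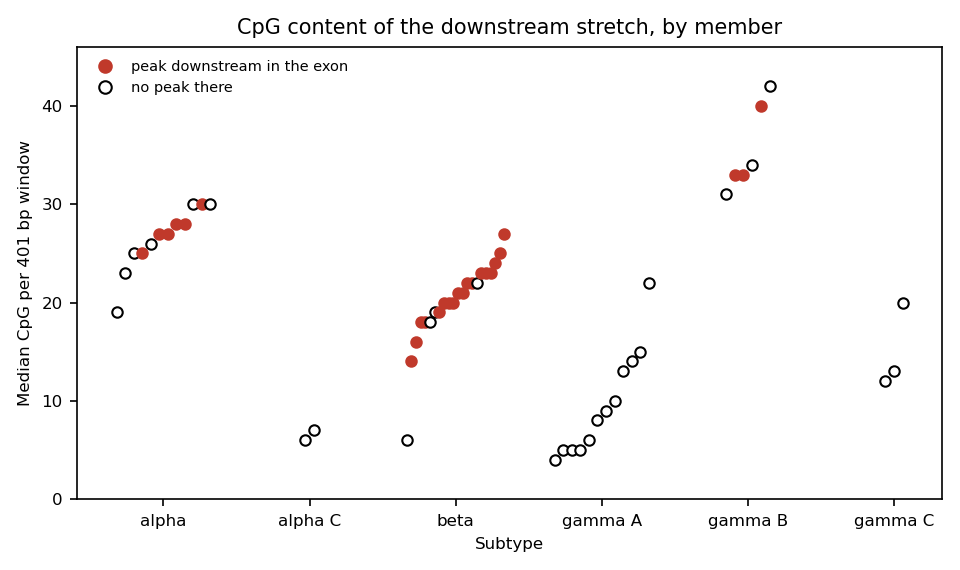
Each point is 1 member, at the median number of CpG per 401 bp window between 1315 and 1863 bp from the start codon, filled red where a TET2 peak midpoint lay there. Filled and open points overlap within alpha, beta and gamma B, while most gamma A points stand below the beta points.

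The CpG ratio, observed over that expected from base composition, also separated subtypes more than members with and without a peak. Over the whole variable exon its median was 0.439 in members with a peak (0.286 to 0.773, n = 30) and 0.533 in members without (0.318 to 0.780, n = 27). That difference was smaller than the SD within either group (0.147 and 0.143). Within 500 bp of the exon's first base, a TSS in most members, the medians were 0.449 with and 0.642 without a peak. This second difference was larger than both SDs (0.161 and 0.182). These pooled medians mix subtypes. Over the whole exon the median was 0.704 with and 0.665 without a peak in alpha, 0.386 and 0.392 in beta, and 0.665 and 0.712 in gamma B. Around the exon's first base it was 0.683 and 0.704 in alpha, 0.390 and 0.304 in beta, and 0.658 and 0.642 in gamma B. Within a subtype the lower value was thus not always on the same side. In exons with at least 2 kb of coding sequence outside the clusters, split into 5 classes of rising CpG ratio, the share with a peak rose through 0.725%, 6.52%, 17.4%, 21.7% and 40.3%. The 56 distinct member exons (the exons of Pcdhb21 and Pcdhb22 overlap) fell only in the upper 3 classes. There 4 of 7 (57.1%, 18.4% to 90.1%), 11 of 16 (68.8%, 41.3% to 89%) and 14 of 33 (42.4%, 25.5% to 60.8%) had a peak. The interval for the members lies above that of the other exons (15.2% to 29.6%) in the class next to the top, and overlaps it in the other 2 classes.

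In alpha, beta, gamma A and gamma B, members resembled each other most in the stretch under the far peaks, by the median. This bears on how surely reads can be assigned. The stretch was taken in the alignment as the columns of the 27 midpoints with 200 more on each side, and values are medians over members of the mean identity within a subtype. In beta the identity was 63.2% before it, 83.2% in it and 75.3% after it. The same 3 values were 71.1%, 81.8% and 75.6% in alpha, 64.6%, 81.8% and 66.2% in gamma B, and 66.0%, 74.0% and 70.3% in gamma A. In alpha C, which had no far peak, they were 53.1%, 52.6% and 39.8%. Gamma C members, without any peak, were likewise less alike in the stretch than before it. Of all 50-base words in a far peak, a median of 82.2% occurred once in the genome, from 45.1% at Pcdha3 to all of them at Pcdhb10. By subtype the shares ran from 73.3% to 100% in beta, 45.1% to 75.7% in alpha and 65.4% to 92.0% in gamma B. In the bin with the most CpG the mean share over members was 81.7% in beta and 83.5% in gamma B (1600 to 1800 bp). In alpha it was 46.75% (1400 to 1600 bp). The mean share varied among bins also rich in CpG but without a midpoint. It was 34.1% (1800 to 2000 bp) and 83.7% (0 to 200 bp) in gamma B. In alpha such bins had 52.9% (200 to 400 bp) and 100% (1800 to 2000 bp). Between 1315 and 1863 bp, the median share of such words was 91.4% in members with and 91.7% in members without a peak in beta, 79.2% and 85.1% in alpha, and 73.2% and 81.9% in gamma B. The lowest shares in alpha and gamma B belonged to members without a peak, 66.0% at Pcdha6 and 54.3% at Pcdhgb1. Pcdhgb2, with a peak, was close at 56.3%, and in beta the lowest share, 75.7%, belonged to Pcdhb19, which had a peak. How the authors' alignment treated reads with several matches is not given in the sources used here, and its part in these peaks was not tested. Few of the bases were repeats: the far peaks had a median of 0% repeat-masked bases (highest 11.1% at Pcdhb11), against 8.75% over all nuclear peaks.

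The letters AGGNGGC, a core of the sequence that CTCF binds, were searched on both strands within 200 bp of each midpoint. They were present at 6 of the 27 far midpoints (22.2%, 8.62% to 42.3%) and at 42.7% of all 14098 nuclear midpoints. Alpha variable exons are known to hold a CTCF site, and a match or its absence in these windows says nothing about binding.

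Protocadherin genes outside the clusters have similar extracellular parts but no clustered arrangement. Of 12 such genes, 4 had a midpoint within 1 kb of a TSS (33.3%, 9.92% to 65.1%): Pcdh9 (−log10 p 10.7), Pcdh19 (8.51), Pcdh1 (6.12) and Pcdh15 (5.54). The interval includes the 24.6% of all protein-coding genes and overlaps that of the members. In 8 of the 12 the start codon lies in an exon of at least 2 kb, as in the members, and 4 of these 8 held a peak in it (Pcdh19 counts in both places). The midpoints were 2032 bp from the start codon at Pcdh10 (4.73), 1318 bp at Pcdh8 (6.73), 325 bp at Pcdh17 (6.36) and −225 bp at Pcdh19. Those of Pcdh8 and Pcdh10 lay far from the start codon. That of Pcdh8 fell at the lower end of the range of the members, which Pcdha1 alone sets at 1315 bp. All other far midpoints of members lay at 1486 bp or beyond.

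Of 13 genes known to regulate the clusters or to bind their constant parts, 4 had a promoter peak (30.8%, 9.09% to 61.4%), a share whose interval also includes 24.6%. Smchd1, a silencer of the clusters, had a value of 10.4, and Dnmt3b, the methyltransferase that methylates their promoters, 7.53. Stag1, a subunit of cohesin, had 8.52, and Wapl, which releases cohesin from DNA, 8.10. Ctcf, the other cohesin genes Rad21, Smc1a, Smc3 and Stag2, the cohesin loader Nipbl, Setdb1 and the kinases Ptk2 and Ptk2b had none within 1 kb.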

How the data were processed

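ChIP-seq was performed by the authors on 1 TET2 and 1 input library. Reads were trimmed by the authors, mapped with bowtie1 and passed to MACS2 for peak calling (version 2.1.0 per the submitters' processing notes). The deposited file has 1 interval per peak with a −log10 p from the peak caller. This value served here for ranking and as a filter. Input was not analysed on its own. The processing notes name mm10 (GRCm38), the methods name GRCm39, and the reporting summary names both GRCm39 and GRCh38. On GRCm38 no midpoint fell on an unknown base and 3430 (24.3%) lay within 200 bp of a TSS, so GRCm38 was used without conversion. Placement on the other named builds was not checked.

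Each peak was placed by its midpoint. The variable exon is the exon with a member's start codon, and constant exons are coding exons shared by at least 5 members. The gene whose GENCODE symbol repeats Pcdha11 is called Pcdha10, as in RefSeq. CpG, repeats and 50-base words were read from RefSeq's GRCm38 sequence, and coding parts were aligned with mafft 7.526. The membrane mark was the window of 19 residues with the highest mean hydropathy after the first 100 residues. Exact binomial and Poisson intervals came from scipy 1.17.1. Sequence was read with samtools 1.23.1 and pysam 0.24.0, tables were handled with pandas 2.3.3 and numpy 2.4.6 in Python 3.11.15, and matplotlib 3.10.9 drew the figures. Placement of peaks and counting of words were tested on simulated data.

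The members and lists were chosen with earlier results of these data known. Named genes were members with a peak in the variable exon or at a TSS, the first and last member of each cluster, genes of both other lists with a promoter peak, and genes that hold a peak between members. Further members and genes were named to account for every one. Alternatives were a −log10 p of at least 5, any overlapping base, other windows, TSS sets and exon classes.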

Additional observations from a re-analysis of the deposited data

How the results depend on the processing

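Of 31 alternative values, 25 stayed within the counting error of the reported value (for CpG, within 1 SD, and for the count, within 1.5-fold). Only the CpG ratio difference, pooled over subtypes, had a sign that could change, and it did not. The clusters held 31 peaks at a −log10 p of at least 5, 32 by any overlapping base and 32 with 10 kb added on each side. Members with a peak in the variable exon were 50.9% at the higher threshold and 52.6% by any overlapping base. Per Mb of the members' coding sequence the density was 203. A 3 kb window gave a TSS peak in 57.9% of members and in 66.7% of nonclustered protocadherin genes. Against all protein-coding genes this window turned the order of the members, from 7.02% against 24.6% to 57.9% against 28.5%. Long coding exons held a peak in 8.61% at the higher threshold and in 19.9% with at least 2 kb of coding sequence, a choice made after seeing the data. As a share of the coding part, the median position over all 30 exon peaks was 70.4%, and in bp it was 1682.5. No paired analysis was possible because only 1 sample was precipitated and nothing was tested. The depth is unknown, so a member without a peak cannot be told from one whose peak was missed.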
